A study of Equus caballus with 15 samples.

Results

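The genes described here are those of natural killer (NK) cells and of cytotoxic granules: PRF1, GZMA, GZMB, GZMK, GNLY, NKG7, KLRK1, KLRD1, NCR1 and EOMES. They were chosen by gene symbol, with no measured value in the rule, though earlier results of these data were known. Of the 10 symbols looked for, 9 were found among the 16932 genes with deposited values, and no row carried the symbol GZMB, so granzyme B was not analysed here.

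NK cells and cytotoxic T cells kill target cells by releasing granules that hold perforin, granulysin and granzymes. Perforin opens the target membrane, granzymes are proteases that enter through it, and granulysin is a membrane-damaging peptide. Killing by NK cells is set by the balance of activating and inhibitory receptors on their surface, and the T-box factor EOMES takes part in their maturation. In cultures grown from blood mononuclear cells, these transcripts are known for lymphocytes rather than for macrophages.

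The libraries came from equine macrophages grown for 5 days with M-CSF at 30 ng/ml from blood mononuclear cells of 2 horses (geldings, 3 and 5 years of age), and the labels do not say which of them gave which library. Untreated cultures received neither IL-1ß nor a product. The IL-1ß group received IL-1ß at 10 ng/ml, and the remaining groups received the same IL-1ß together with an orthobiologic therapy (OT) as 25% of the medium for 24 h. The OTs were conditioned medium of bone marrow mesenchymal stromal cells (MSC-CM), lysed platelet rich plasma (PRP lysate) and serum conditioned by incubation (ACS, autologous conditioned serum), all prepared from the same 3 horses of 2 to 5 years, which gave no macrophages. The labels do not tie the numbered PRP lysate and MSC-CM libraries to a horse, and the ACS labels carry a name in place of a number. Each of the 5 groups held 3 libraries. The study describes the IL-1ß and untreated libraries as technical replicates, so p-values measure the spread between these libraries, which may be technical. The labels place RNA collection right after the treatment was washed off, and the study's methods place it after a further 24 h.

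The libraries held 28410739 to 47894069 reads on genes. A pair of them stood apart from the rest: IL-1ß replicate 3 and PRP lysate replicate 1 lay at −103.1 and −51.68 on the first principal component, with the other 13 between −20.71 and 26.62. In these libraries 69 ribosomal protein genes summed to 71955 and 55154 CPM (read counts scaled to a common library total), against 29636 to 51359 in the others. Of the macrophage markers, CD68 was at 1340 to 2157 CPM and MRC1 at 515 to 3394 CPM, while the monocyte and myeloid markers CD14 and ITGAM stayed between 1.10 and 4.32 CPM. Lymphocyte RNA was present in every library, with CD3E, a chain of the T cell receptor complex, at 140 to 520 CPM.

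All 9 genes were detected in every library, from 28 reads for NCR1 in PRP lysate replicate 1 to 16504 reads for GNLY in the same library. Each passed the filter for testing, a mean of at least 1 CPM over the 15 libraries, as did 11628 genes in all. A gene was called where the limma fit on log2(CPM + 1) gave a Benjamini-Hochberg adjusted p of at most 0.05 and a difference of at least 2-fold. In bulk RNA, fewer cells of a type and less RNA per cell cannot be told apart. CPM is not divided by transcript length, so levels were compared between conditions and not between genes.

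Perforin is encoded by PRF1 (ENSECAG00000012441, EquCab3.0 chromosome 1, 59116691 to 59121052). PRF1 was at 113, 86.0 and 118 CPM in the untreated libraries and at 94.6, 117 and 183 CPM with IL-1ß alone. With MSC-CM it was at 132, 115 and 115 CPM, with PRP lysate at 258, 109 and 106 CPM, and with ACS at 101, 88.1 and 157 CPM. The highest PRF1 values lay in the libraries that stood apart, and every pair of groups overlapped.

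GNLY (ENSECAG00000015819, chromosome 15, 19476750 to 19484277) encodes granulysin. Its level was 99.3, 63.5 and 138 CPM in untreated macrophages, 81.0, 95.2 and 237 CPM with IL-1ß, and 131, 129 and 118 CPM with MSC-CM. With PRP lysate GNLY was at 443, 135 and 157 CPM, and with ACS at 110, 94.8 and 185 CPM. All 3 PRP lysate values lay above all 3 MSC-CM values, but the mean of 245 ± 172 CPM (SD, n = 3) rested on replicate 1.

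NKG7 (ENSECAG00000014234, chromosome 10, 21143109 to 21147514) encodes a granule membrane protein of NK and T cells, and its span overlaps that of ETFB. Its highest values lay in the same libraries as those of GNLY. NKG7 was at 354, 112 and 113 CPM with PRP lysate and at 73.2, 91.3 and 213 CPM with IL-1ß, against 52.4 to 131 CPM in the other 9 libraries.

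**Figure D1:**
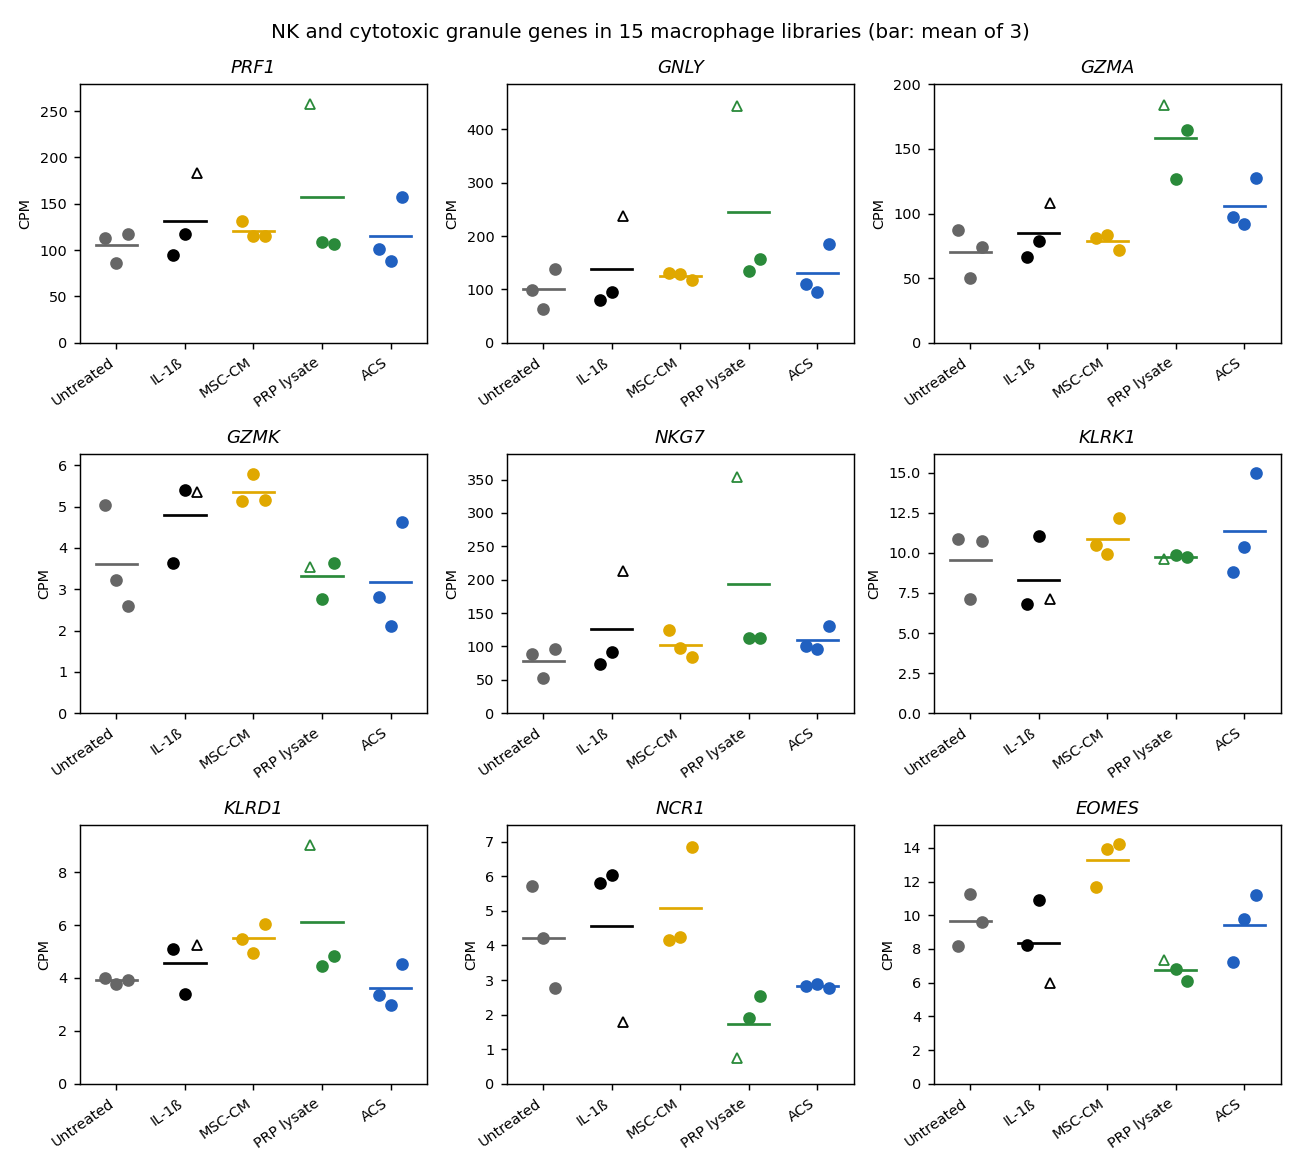
CPM of the 9 NK and cytotoxic granule genes (vertical axis from 0, a scale for each gene) in the 5 groups. Points are libraries, bars are means of 3, and open triangles are IL-1ß replicate 3 and PRP lysate replicate 1. The triangle of PRP lysate is the highest library for PRF1, GNLY, GZMA, NKG7 and KLRD1, and the lowest for NCR1.

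GZMA (ENSECAG00000023330, chromosome 21, 17827889 to 17835393) encodes granzyme A, a tryptase of NK and T cell granules. All 3 PRP lysate libraries were high. GZMA was at 184, 127 and 165 CPM with PRP lysate, a mean of 159 ± 29.3 CPM (SD, n = 3). With ACS it was at 97.4, 91.7 and 127 CPM. The IL-1ß libraries held 66.7, 78.8 and 108 CPM, the MSC-CM libraries 81.5, 83.2 and 72.1 CPM, and the untreated libraries 87.1, 50.1 and 74.2 CPM. All 3 PRP lysate values lay above the 9 values of the IL-1ß, MSC-CM and untreated groups and overlapped those of ACS.

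GZMK (ENSECAG00000008606), which encodes granzyme K, another tryptase, lies 79547 bases from GZMA on chromosome 21 (17914940 to 17923095). Its values did not follow those of GZMA. GZMK was at 5.14, 5.79 and 5.15 CPM with MSC-CM and at 3.55, 2.77 and 3.63 CPM with PRP lysate. It ranged from 3.64 to 5.40 CPM with IL-1ß, from 2.11 to 4.64 CPM with ACS and from 2.59 to 5.03 CPM in untreated macrophages. The PRP lysate values lay below the MSC-CM and IL-1ß values, on 80 to 227 reads a library over all groups.

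KLRK1 (ENSECAG00000017267, chromosome 6, 38489836 to 38499153) encodes the activating receptor NKG2D. KLRD1 (ENSECAG00000031528, 38406538 to 38464575) encodes CD94, which pairs with NKG2A and NKG2C but not with NKG2D, and lies 25261 bases away. KLRK1 varied least among the 9 genes, between 6.81 and 14.97 CPM with a coefficient of variation of 20.9% over all libraries. KLRD1 lay between 2.98 and 6.04 CPM in 14 libraries and at 9.03 CPM in PRP lysate replicate 1. The KLRD1 span overlaps that of the unnamed gene ENSECAG00000038935, and the strand setting of the counting is not given, so reads of overlapping genes may be mixed.

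NCR1 (ENSECAG00000013762, chromosome 10, 24540838 to 24560861) encodes NKp46, an activating receptor that is among the more specific markers of NK cells. NCR1 was at 0.752, 1.91 and 2.53 CPM with PRP lysate, which was 28, 80 and 72 reads. With ACS it was at 2.84, 2.90 and 2.76 CPM and with MSC-CM at 4.17, 4.24 and 6.83 CPM. The IL-1ß libraries held 5.81, 6.05 and 1.80 CPM and the untreated libraries 5.72, 4.20 and 2.77 CPM. The PRP lysate values lay below those of ACS, MSC-CM and untreated macrophages, and overlapped those of IL-1ß through IL-1ß replicate 3 alone.

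EOMES (ENSECAG00000021052, chromosome 16, 57395898 to 57401004) was at 11.7, 13.9 and 14.2 CPM with MSC-CM and at 7.34, 6.84 and 6.12 CPM with PRP lysate. It was at 8.26, 10.9 and 5.98 CPM with IL-1ß, at 7.23, 9.77 and 11.2 CPM with ACS and at 8.15, 11.3 and 9.62 CPM in untreated macrophages. All 3 MSC-CM values lay above the other 12 libraries.

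IL-1ß alone was compared with no treatment to ask whether the cytokine moves these transcripts. None of the 9 genes was called by limma, beside 0.292% of all genes, and none had an unadjusted p under 0.05, beside 13.0% of all genes. edgeR and DESeq2 on recovered reads also called 0, beside 0.197% of all genes and 1.12% of those with an adjusted p. Of the 9 genes, 0 had an unadjusted p under 0.05 in each. The log2 differences of the 9 genes had a median of 0.27, beside −0.07 over all genes, and 7 of the 9 were positive. That median was 0.07 without IL-1ß replicate 3 or without untreated replicate 2, 0.42 without IL-1ß replicate 1, and −0.06 with 2 of 9 positive when the ribosomal protein level was a covariate. The IL-1ß and untreated values overlapped for every one of them, where 16.2% of all genes did not overlap.

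MSC-CM was next compared with IL-1ß alone. limma called none of the 9 genes and 0% of all genes. edgeR and DESeq2 also called none of the 9, beside 0% and 0.0118% of all genes. Only EOMES had an unadjusted p under 0.05, beside 5.60% of all genes, and edgeR and DESeq2 each gave 1 such gene. EOMES was higher in 3 of 3 MSC-CM libraries than in any IL-1ß library, where 7.25% of all genes lay apart in that direction. Its log2 difference was 0.63 (SE 0.217) with an adjusted p of 0.705 (limma), and the adjusted p was between 0.128 and 1.00 over its 17 alternatives.

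limma called 3.09% of all genes between PRP lysate and IL-1ß, but none of the 9 reached both thresholds. GZMA passed the adjusted p alone, which 1.93% of all genes did in the same direction. All 3 of its PRP lysate values lay above the IL-1ß values, where 8.50% of all genes lay apart in that direction. GZMA was 1.87-fold higher by the ratio of mean CPM, with a log2 difference of 0.91 (SE 0.230, 95% interval 0.41 to 1.41) and an adjusted p of 0.0374 (limma). Over the 17 alternatives the adjusted p ran from 0.000124 with the ribosomal protein covariate to 0.297 in the fit of the 2 groups alone. It was 0.118 with RLE size factors, 0.104 with TMM factors, 0.0532 with no filter, 0.142 in edgeR, 0.0952 in DESeq2 and 0.107 with the replicate block, and it was above 0.05 when any of PRP lysate replicates 1 and 3 and IL-1ß replicates 1 and 2 was left out. It was 0.0117 without IL-1ß replicate 3.

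NCR1 had a mean log2 difference of −0.97 between PRP lysate and IL-1ß, with an unadjusted p of 0.0202 and an adjusted p of 0.174 (limma). Without IL-1ß replicate 3 the log2 difference was −1.40 with an adjusted p of 0.0168, which would count as called, beside 3.53% of all genes in that fit. DESeq2 called it at −1.46 with an adjusted p of 0.0259, beside 4.57% of the genes with an adjusted p, and edgeR gave −1.44 with 0.112. In edgeR and in DESeq2, as in limma, 2 of the 9 genes had an unadjusted p under 0.05, beside 17.5% of all genes in limma.

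GZMK was lower in 3 of 3 PRP lysate libraries than in any IL-1ß library, where 6.47% of all genes lay apart in that direction. Its log2 difference was −0.42 (SE 0.249) with an adjusted p of 0.431 (limma), from 0.193 to 0.880 over the alternatives. For PRF1, GNLY and NKG7 the log2 differences were 0.18, 0.78 and 0.55 with 95% intervals of −0.54 to 0.90, −0.24 to 1.80 and −0.43 to 1.52. These intervals include 0 and, for GNLY and NKG7, also a 2-fold difference. The values rested on PRP lysate replicate 1, without which they were −0.23, 0.25 and 0.00. Without IL-1ß replicate 1, PRF1 was at −0.03, GNLY at 0.49 and NKG7 at 0.24, and without IL-1ß replicate 3 they were 0.45, 1.26 and 1.01, with adjusted p-values of at least 0.136 (limma) in these 3 fits.

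ACS against IL-1ß called none of the 9 genes in limma, beside 2.21% of all genes. edgeR and DESeq2 also called none, beside 1.77% of all genes and 4.01% of those with an adjusted p. No gene of the 9 had an unadjusted p under 0.05 in limma, beside 20.5% of all genes, and edgeR and DESeq2 gave 1 each. All 9 overlapped between the groups, where 26.2% of all genes did not. GZMA had a log2 difference of 0.33 with a 95% interval of −0.17 to 0.83, from 0.17 without IL-1ß replicate 1 to 0.52 without IL-1ß replicate 3. The comparisons of MSC-CM, PRP lysate and ACS with IL-1ß share the IL-1ß libraries and are not independent of each other.

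**Figure D2:**
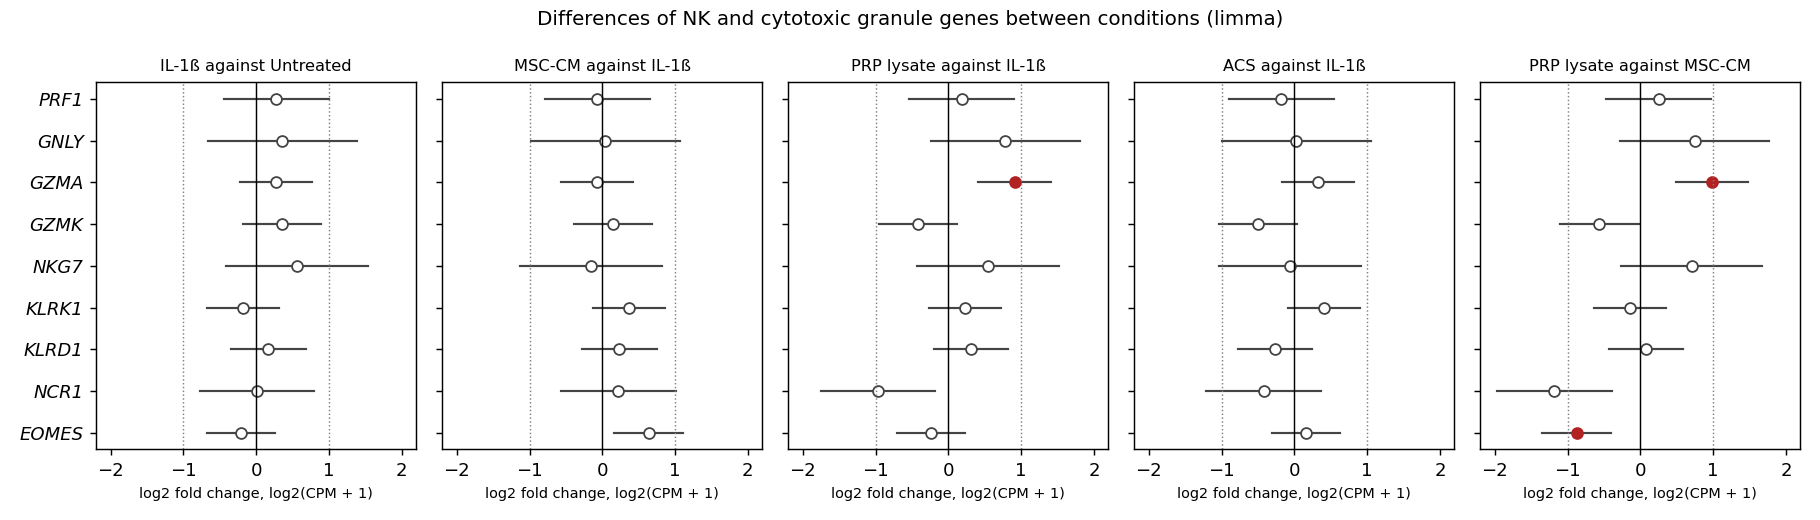
Log2 differences of the 9 genes on the log2(CPM + 1) scale (horizontal axis) with 95% intervals from limma, in 5 comparisons. Filled red points have an adjusted p of at most 0.05, and dotted lines mark 2-fold. The filled points are GZMA in PRP lysate against IL-1ß (0.91) and against MSC-CM (0.98), and EOMES in PRP lysate against MSC-CM (−0.88).

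The OTs were also compared with each other. PRP lysate against MSC-CM called none of the 9 genes in limma, beside 2.61% of all genes, or in edgeR, beside 2.24%. DESeq2 called GZMA and NCR1, beside 3.46% of the genes to which it gave an adjusted p. The unadjusted p was under 0.05 for 4 of the 9 genes in limma, 3 in edgeR and 5 in DESeq2, beside 14.5% of all genes in limma. The adjusted p alone was passed by GZMA, as by 1.44% of all genes in that direction. GZMA was 2.01-fold higher by the ratio of mean CPM, with a log2 difference of 0.98 (SE 0.230) just under the 2-fold threshold and an adjusted p of 0.0282 (limma). With RLE size factors or TMM factors it passed both thresholds, at 1.06 and 1.04, and DESeq2 gave 1.09 with an adjusted p of 0.00694. The adjusted p was between 0.0316 and 0.135 when 1 library was left out, and leaving out any library other than PRP lysate replicate 2 took it above 0.05.

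EOMES was lower with PRP lysate than with MSC-CM in 3 of 3 libraries, by a log2 difference of −0.88 (SE 0.217) with an adjusted p of 0.0382 (limma), again short of 2-fold. Its adjusted p alone was under 0.05, as for 2.78% of all genes in that direction. Leaving out 1 library gave adjusted p-values of 0.0434 to 0.165, and only the fit without PRP lysate replicate 1 kept it under 0.05. With the PRP and MSC numbers as a replicate block, the adjusted p was 0.0468 for GZMA and 0.0676 for EOMES. With the block over 12 libraries and all numbered groups, these were 0.0933 and 0.110.

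NCR1 had the largest log2 difference among the 9 genes between PRP lysate and MSC-CM, −1.19 (SE 0.365), with an adjusted p of 0.0997 (limma). The adjusted p ranged from 0.00139 to 0.388 over the 18 alternatives, and the mean CPM was 2.93-fold lower. DESeq2 gave −1.49 with an adjusted p of 0.0227.

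In all, 6 of the 9 genes did not overlap between PRP lysate and MSC-CM, where 19.4% of all genes did not. GZMA and GNLY were higher with PRP lysate, and GZMK, KLRK1, NCR1 and EOMES were lower. GNLY differed by 0.74 with an adjusted p of 0.580, GZMK by −0.56 with 0.307, and KLRK1 by −0.14 with 0.909 (limma). The GNLY difference was 0.21 without PRP lysate replicate 1, and that of KLRK1 was −0.06 without MSC-CM replicate 3.

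ACS against MSC-CM called none of the 9 genes, beside 1.23% of all genes in limma, 0.921% in edgeR and 2.14% in DESeq2. Each tool gave 2 genes with an unadjusted p under 0.05, beside 13.5% of all genes in limma. The groups did not overlap for 5 of the 9, where 35.1% of all genes did not. GZMA was higher with ACS by 0.40 (adjusted p of 0.498, limma). EOMES, GZMK, KLRD1 and NCR1 were lower, by differences of −0.47, −0.65, −0.50 and −0.64 with adjusted p-values of 0.255 to 0.498. Without ACS replicate 3 the GZMA difference was 0.26, and without ACS replicate 1 that of EOMES was −0.31.

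PRP lysate against ACS called none of the 9 genes in any of the 3 tools, beside 0.0946% of all genes in limma, 0.0804% in edgeR and 0.381% in DESeq2. The unadjusted p was under 0.05 for 2 genes in limma, 2 in edgeR and 3 in DESeq2, beside 5.19% of all genes in limma. The limma differences were 0.58 for GZMA with an adjusted p of 0.831 and 0.58 for KLRD1 with 0.842. NCR1 alone did not overlap, beside 15.6% of all genes, with a difference of −0.55 and an adjusted p of 0.842. Without PRP lysate replicate 1 the differences were −0.26 for NCR1 and 0.30 for KLRD1.

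The order of group means was PRP lysate, ACS, IL-1ß, MSC-CM, untreated for GZMA, and each neighbour in that order overlapped the next. For EOMES the order was MSC-CM, untreated, ACS, IL-1ß, PRP lysate, and MSC-CM and untreated were the only neighbours in that order that did not overlap. For NCR1 it was MSC-CM, IL-1ß, untreated, ACS, PRP lysate, and ACS and PRP lysate were the only neighbours that did not overlap. PRP lysate had the highest mean for PRF1, GZMA, GNLY, NKG7 and KLRD1, and the lowest for NCR1 and EOMES. Without its replicate 1 the PRP lysate mean was still the highest for GZMA (146 CPM) and GNLY (146 CPM) and the lowest for NCR1 and EOMES. For PRF1, NKG7 and KLRD1 it was then 108, 113 and 4.65 CPM, below the IL-1ß means of PRF1 and NKG7 and the MSC-CM mean of KLRD1. Those IL-1ß means still include IL-1ß replicate 3, at 183 CPM for PRF1 and 213 CPM for NKG7. IL-1ß replicates 1 and 2 were at 94.6 and 117 CPM for PRF1. For NKG7 they were at 73.2 and 91.3 CPM, below 113 CPM.

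Levels of the 9 genes were also correlated with each other. Over the 15 libraries the Pearson correlation of log2(CPM + 1) was 0.96 for GNLY and NKG7, 0.93 for PRF1 and GNLY, and 0.92 for PRF1 and NKG7. Without the libraries that stood apart these were 0.89, 0.77 and 0.70. GZMA had 0.81 with GNLY and 0.79 with NKG7, and 0.77 and 0.79 over those 13. With PRF1 it had 0.62, and 0.37 over 13. KLRD1 had 0.74 with PRF1, 0.72 with GNLY and 0.66 with NKG7, and 0.41, 0.36 and 0.17 over 13. KLRK1 had 0.18 with PRF1 and GNLY and 0.09 with NKG7, but 0.80, 0.72 and 0.68 over the 13. GZMK had 0.14 with GNLY, 0.12 with NKG7 and −0.07 with GZMA over 15, and 0.16, 0.12 and −0.09 over 13. With PRF1 and KLRD1 it had 0.35 each, and 0.58 and 0.55 over 13. NCR1 had −0.78 with GNLY, −0.78 with NKG7 and −0.76 with GZMA over 15 libraries, and −0.50, −0.50 and −0.64 over 13. With PRF1 it had −0.61, and −0.03 over 13, and with GZMK it had 0.40, and 0.65 over 13. EOMES had 0.61 with NCR1 and −0.59 with GZMA, and 0.52 and −0.55 over 13. With PRF1, GNLY and NKG7 it had −0.22, −0.37 and −0.44, and 0.30, −0.08 and −0.17 over 13. These are descriptions, since the values of 1 library share its depth and its scaling.

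Ratios within a library do not depend on that scaling. The ratio of GZMA to PRF1 CPM, chosen after its values were seen, was 0.715, 1.16 and 1.55 with PRP lysate and 0.966, 1.04 and 0.811 with ACS. It was between 0.583 and 0.768 in the 9 libraries of the other groups. The ACS values all lay above those 9, and PRP lysate replicate 1 lay among them.

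The summed CPM of the 9 genes ran from 282 to 455 without treatment, from 345 to 767 with IL-1ß, and was 434 to 506 with MSC-CM, 508 to 1270 with PRP lysate and 399 to 638 with ACS. The highest sums were in PRP lysate replicate 1 and IL-1ß replicate 3. Over the 15 libraries the correlation with the mean log2 ribosomal protein level was 0.75 for PRF1, 0.72 for NKG7 and 0.64 for GNLY, but 0.28 for GZMA and −0.29 for NCR1. Without the libraries that stood apart it was 0.46, 0.34, 0.20, −0.10 and 0.48.

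Of 16 T cell markers 15 were listed and all were above 0 somewhere. Their summed CPM ran from 1248 to 1632 without treatment, from 1653 to 2424 with IL-1ß, and was 2119 to 2223 with MSC-CM, 1315 to 2486 with PRP lysate and 1271 to 1567 with ACS. None was called between PRP lysate and IL-1ß, beside 3.09% of all genes, and CD4 was called lower between PRP lysate and MSC-CM, 1 of 15 beside 2.61%. Of the 10 listed macrophage markers, CD163, MERTK and C1QC fell with PRP lysate against IL-1ß, 3 of 10 beside the same 3.09%, and the list summed to 2038 to 4232 CPM with PRP lysate and 3454 to 6451 CPM with IL-1ß. The 6 listed platelet markers summed to 14.1 to 42.9 CPM with PRP lysate and 12.5 to 16.4 CPM with IL-1ß, and none of 6 tested B cell markers was called in any comparison. The part of T cells, macrophages and platelets in the values of the 9 genes was not tested. With the ribosomal protein level as a covariate, GNLY, GZMA and NCR1 were called between PRP lysate and IL-1ß, beside 4.83% of all genes in that fit. GZMA and NCR1 were then called between PRP lysate and MSC-CM, beside 5.21%, and NCR1 between ACS and IL-1ß, beside 3.11%, and between ACS and MSC-CM, beside 4.52%. Each of these shares was above that of the fit without the covariate. Without both libraries GZMA differed by 0.99 between PRP lysate and IL-1ß with an adjusted p of 0.0168 (limma).

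**Figure D3:**
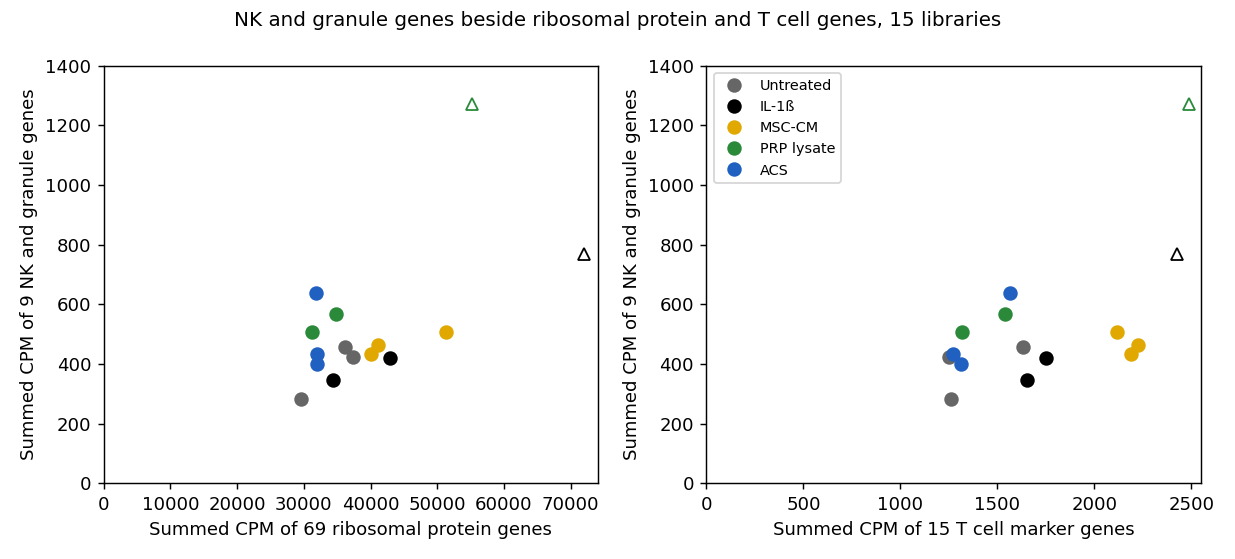
Summed CPM of the 9 NK and cytotoxic granule genes (vertical axis) against the summed CPM of 69 ribosomal protein genes (left) and of 15 T cell markers (right), 1 point a library. Open triangles are IL-1ß replicate 3 (767 CPM) and PRP lysate replicate 1 (1270 CPM), which lie at the high end of both horizontal axes.

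Among the genes whose pattern was most like the log2 summed CPM of the 9 were FKBP4, FDPS, FEN1, REEP4, LSP1, RPGRIP1, KCTD17, SH3BP1 and SMARCE1. Their Pearson correlations over the 15 libraries ran from 0.95 for FKBP4 to 0.92 for SMARCE1. Without the libraries that stood apart these correlations were lower, at 0.75 to 0.88.

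Other parts of the cytotoxic programme were taken from lists of pathway genes. Over all genes the share called was 0% to 3.09% in the 7 comparisons. Of 9 tested granule proteins, only CTSC was called in any comparison. CTSC encodes cathepsin C, which removes the propeptide of granzymes and is also a lysosomal protease of macrophages. CTSC was at 473, 409 and 392 CPM with PRP lysate and at 890, 1098 and 1133 CPM with ACS. It was at 1786, 2003 and 2213 CPM with IL-1ß, 2115, 1651 and 2035 CPM with MSC-CM and 1772, 1586 and 1590 CPM in untreated macrophages. CTSC fell with PRP lysate against IL-1ß by 2.23 on the log2 scale (SE 0.138, adjusted p of 3.01e-06, limma), and this call held in all 17 alternatives. It also fell by 2.18 against MSC-CM (adjusted p of 8.06e-06, limma) and by 1.29 against ACS (adjusted p of 0.00187, limma). The call against MSC-CM held in all 18 alternatives, and that against ACS was lost in 1 of 16, the fit of the 2 groups alone, at 0.0947. With ACS against IL-1ß the difference was −0.95 with an adjusted p of 0.00322, short of 2-fold, and it passed 2-fold in 6 of 16 alternatives, among them RLE and TMM scaling and the fits without ACS replicate 3 or IL-1ß replicate 1.

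None of 10 genes of granule exocytosis, such as RAB27A and UNC13D, was called in any of the 7 comparisons. The same held for 17 NK transcription factors and cytokine receptors. Both counts of 0 are near the share called over all genes and are no result about these lists. TBX21, the T-box factor related to EOMES, was at 193, 73.3 and 67.2 CPM with PRP lysate and at 42.8 to 99.9 CPM in the other groups, so its highest value lay in PRP lysate replicate 1 too.

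Of 17 tested NK receptors and adaptors, CD244 was called lower with PRP lysate against IL-1ß, beside 3.09% of all genes called in either direction. CD244 and TIGIT were called lower against MSC-CM, beside 2.61%. None was called in the other comparisons. Between PRP lysate and IL-1ß 3 of the 17 passed the adjusted p alone, and they did not share a direction. CD244 and FCER1G were lower. CD160 was higher by 0.96 with an adjusted p of 0.0362 (limma), where 1.93% of all genes passed in that direction. CD160 was at 1.17 to 2.78 CPM with PRP lysate and at 0.173 to 0.806 CPM with IL-1ß, on 5 to 29 IL-1ß reads. CD244, a receptor of the SLAM family also known as 2B4, was at 0.618, 2.03 and 3.41 CPM with PRP lysate and at 10.98, 13.4 and 5.46 CPM with IL-1ß. Its log2 difference was −1.90 with an adjusted p of 0.0282 (limma), and the call was lost in 6 of 17 alternatives, among them the replicate block over 12 libraries (0.124) and the fits without PRP lysate replicate 1 or 2 or without IL-1ß replicate 1 or 2, with adjusted p-values up to 0.239. Against MSC-CM the CD244 difference was −1.81 with an adjusted p of 0.0395 (limma), lost in 7 of 18 alternatives, among them the fits without PRP lysate replicate 1 or 2 or MSC-CM replicate 1 or 3. The replicate block over 12 libraries also ended this call, at an adjusted p of 0.172, while the block of the PRP and MSC numbers gave 0.023 (limma). TIGIT, an inhibitory receptor of T and NK cells, fell with PRP lysate against MSC-CM by 1.13 on the log2 scale (adjusted p of 0.00648, limma), and this call held in all 18 alternatives.

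Of 9 tested cytokines of NK and T cells, IFNG, TNF, LTA and CSF2 rose with PRP lysate against IL-1ß, which was 4 of 9 beside 3.09% of all genes called in either direction. IFNG, interferon gamma, is made chiefly by NK and T cells, LTA by lymphocytes, and TNF and CSF2 also by macrophages. IFNG was at 30.1, 36.1 and 43.0 CPM with PRP lysate, at 22.0, 16.7 and 22.3 CPM with ACS, and at 7.40 to 12.9 CPM in the 9 other libraries. Its log2 difference between PRP lysate and IL-1ß was 1.87 (SE 0.237) with an adjusted p of 0.000539 (limma).

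The differences for LTA, TNF and CSF2 were 2.07, 1.99 and 1.82, for which limma gave adjusted p of 0.000705, 0.000800 and 0.00140. The calls of IFNG and TNF held in all 17 alternatives, and those of LTA and CSF2 were lost only in the fit of the 2 groups alone, at 0.0608 and 0.0828. The list had a median difference of 0.66, beside 0.11 over all genes. The 9 NK and granule genes had a median of 0.23 in the same comparison, with 6 of 9 positive. Leaving out 1 library gave medians from 0.00 without PRP lysate replicate 1, with 5 of 9 positive, to 0.40 without IL-1ß replicate 3 or PRP lysate replicate 3, and 0.12 and 0.15 without IL-1ß replicates 1 and 2 and 0.38 without PRP lysate replicate 2.

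With ACS against IL-1ß, IFNG, LTA and TNF rose by 1.06, 1.15 and 1.39 (adjusted p of 0.0291, 0.0377 and 0.0147, limma), 3 of 9 beside 2.21% of all genes. These calls were less stable. IFNG was lost in 10 of 16 alternatives, LTA in 11 and TNF in 4, with adjusted p-values up to 0.129, 0.175 and 0.0681. The losses included the fits without any 1 of the ACS libraries or IL-1ß replicate 2 or 3 for IFNG and LTA, and without ACS replicate 2 or 3 or IL-1ß replicate 2 for TNF.

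Against MSC-CM, the same 4 cytokines and CCL5 rose with PRP lysate, 5 of 9 beside 2.61% of all genes, and IFNG, TNF, LTA and CSF2 rose with ACS, 4 of 9 beside 1.23%. With ACS the calls were lost in 8 of 16 alternatives for IFNG, 7 for TNF, 5 for LTA and 11 for CSF2, with adjusted p-values up to 0.225. For each of these 4 cytokines the losses included the fits without any 1 of the ACS libraries and those without MSC-CM replicate 1 or 3, and for TNF and CSF2 also MSC-CM replicate 2. The CCL5 difference of 1.17 (adjusted p of 0.0378, limma) was lost in 12 of 18 alternatives, among them the fits without any 1 of the PRP lysate libraries or without MSC-CM replicate 2 or 3, with adjusted p-values up to 0.193. The replicate block over 12 libraries also ended the CCL5 call, at 0.147, while the block of the PRP and MSC numbers gave 0.0218 (limma). No cytokine of the list was called between PRP lysate and ACS, between MSC-CM and IL-1ß or between IL-1ß and no treatment.

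**Figure D4:**
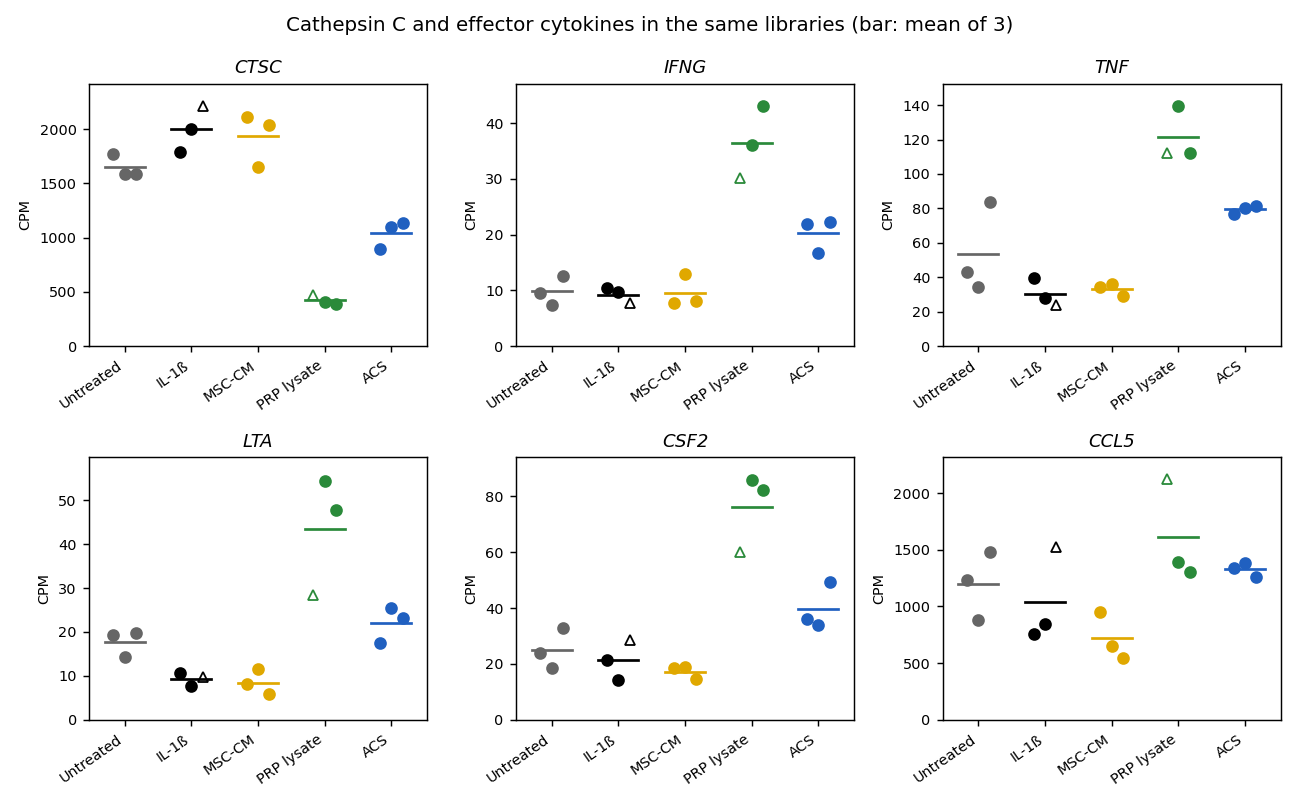
CPM of CTSC and of 5 effector cytokines (vertical axis from 0, a scale for each gene) in the 5 groups, with libraries as points, means of 3 as bars and IL-1ß replicate 3 and PRP lysate replicate 1 as open triangles. CTSC lies at 392 to 473 CPM in the PRP lysate libraries, below all 12 others, and IFNG at 30.1 to 43.0 CPM, above all 12 others.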

How the data were processed

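Polyadenylated RNA of 15 macrophage libraries was sequenced. The authors trimmed reads at a Phred score of 20 in Partek Flow, aligned them to EquCab3.0 with STAR 2.7.3 and counted them with HTseq. The authors deposited CPM for each gene. The strand setting is not given in the sources used here. The columns summed to 982495 to 991421 CPM, since some counted genes are not listed. All 15 columns matched a sample and 0 were left over. The count of reads was recovered from the CPM steps, and 99.7% of the deposited values were whole within 0.1 read. These reads served edgeR and DESeq2 as alternatives, and over all genes edgeR called 0 to 388 of 13675 genes a comparison, beside 0 to 359 of 11628 with limma.

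limma with an intensity trend was fitted to log2(CPM + 1) of all genes whose mean reached 1 CPM, in 1 model of 5 groups. Benjamini-Hochberg adjustment was over all genes within each of the 7 comparisons. Fold changes on this scale understate those of genes with few CPM. A fold change is given for a gene called or not overlapping between groups, and other differences were added after their values were seen. From each pathway list at most 5 called genes are named. Of the 10 genes most like the members in pattern, 1 is not reported here. The members and lists were chosen with earlier results of these data known.

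Same-numbered PRP lysate and MSC-CM libraries deviated together, with correlations of 0.255 to 0.635 of their deviations from group means, and differently numbered ones had −0.596 to 0.470, so that 2 differently numbered pairs lay above the lowest same-numbered pair. In the other numbered pairs of groups same-numbered libraries ran from −0.775 to 0.590. The labels do not say what a number stands for. Alternatives were RLE and TMM scaling, a pseudocount of 0.1, no filter or one at 0.1 CPM, no fold threshold, edgeR, DESeq2, the 2 groups alone, a replicate block and leaving out each library. Added after seeing the data were leaving out both libraries that stood apart, the ribosomal protein level as a covariate, and a block of the PRP and MSC numbers. Scripts were first tested on simulated data. The fits ran in R 4.3.3 with limma 3.58.1, and the alternatives with edgeR 4.0.16 and DESeq2 1.42.0. Tables came from Python 3.11.15 and plots from matplotlib 3.10.9.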

Additional observations from a re-analysis of the deposited data

How the results depend on the processing

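In any fit with a fold threshold, at most 1.46% of all genes were called for IL-1ß against untreated. For MSC-CM against IL-1ß this was 0.0118%, and for PRP lysate against ACS 0.430%. The count of 0 called genes among the 9 stood in all alternatives of these comparisons (18, 18 and 17). For PRP lysate against IL-1ß it was 1 without the fold threshold (GZMA), 1 in DESeq2 (NCR1), 1 without both libraries that stood apart (NCR1) and 3 with the ribosomal protein level as a covariate (GNLY, GZMA and NCR1), beside 4.57%, 4.41% and 4.83% of all genes with an adjusted p in the last 3 of these fits and 3.09% in the reported one. Leaving out 1 library gave 0 to 2, with 1 (GZMA) without PRP lysate replicate 2, beside 2.49%, and 2 (GZMA and NCR1) without IL-1ß replicate 3, beside 3.53%. For PRP lysate against MSC-CM it was 2 without the fold threshold (GZMA and EOMES), 1 with RLE size factors, 1 with TMM factors, 2 in DESeq2 and 2 with the covariate (GZMA and NCR1), beside 2.59%, 2.56%, 3.46% and 5.21% in the last 4, and leaving out 1 library gave 0 to 1, with 1 (GZMA) without PRP lysate replicate 2, beside 2.07%. The covariate gave 1 (NCR1) for ACS against IL-1ß, beside 3.11%, and 1 (NCR1) for ACS against MSC-CM, beside 4.52%. The cause was not tested beyond what each alternative changes.

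The replicate block over the 12 numbered libraries called 0 of the 9 genes in each of the 4 comparisons without ACS. Over all genes it called 0.0516% for IL-1ß against untreated and 0% for MSC-CM against IL-1ß. For PRP lysate it called 1.69% against IL-1ß and 1.47% against MSC-CM. The block of the PRP and MSC numbers also called 0 of the 9, beside 2.66%. These counts of 0 are near the shares over all genes and are no result about the 9 genes. For comparisons with ACS, no paired analysis was possible because the ACS labels carry a name and no number, and nothing ties these names to the PRP and MSC numbers, although the 3 OTs came from the same 3 horses. ACS replicates are numbered here in accession order only. RLE size factors moved the median log2 difference of all genes from 0.16 to 0.00 for MSC-CM against IL-1ß, from 0.11 to 0.02 for PRP lysate and from 0.13 to 0.02 for ACS. Of the differences printed with these comparisons, that of PRF1 between PRP lysate and IL-1ß changed direction, to −0.23 without PRP lysate replicate 1 and −0.03 without IL-1ß replicate 1, from 0.18. Leaving out 1 library gave −0.23 to 0.45 for it. Over all genes DESeq2 called 2 to 684 genes a comparison, beside 0 to 359 in limma. The limits are 3 libraries a group, of which the IL-1ß and untreated ones are technical replicates, and few reads for NCR1, GZMK and KLRD1.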

Other observations

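The ratio of GNLY to PRF1 CPM, chosen after its values were seen, was 1.72, 1.24 and 1.48 with PRP lysate. It was between 0.738 and 1.18 in 11 of the 12 other libraries and 1.29 in IL-1ß replicate 3. The ratio of GZMA to CD3E CPM was 0.533 to 0.615 with ACS, 0.208 to 0.351 with IL-1ß and 0.238 to 0.289 with MSC-CM, so the ACS values lay above those of both groups. With PRP lysate it was 0.363 in replicate 1, 0.736 in replicate 2 and 0.790 in replicate 3, and in untreated macrophages 0.338 to 0.556. This ratio was not among the planned results, and its denominator also differed between groups. CD3E had means of 183 CPM with ACS, 322 CPM with IL-1ß and 301 CPM with MSC-CM, and GZMA of 106, 84.6 and 78.9 CPM.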
